A study of Drosophila melanogaster with 3 samples.

Results

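The genes described here encode 10 Drosophila melanogaster insulator and core-promoter factors: Cp190, Chro, Dref, M1BP, BEAF-32, CTCF, su(Hw), mod(mdg4), pita and ZIPIC. They are 10 of 18164 annotated genes, 13945 of which are protein-coding, and were taken by name from a list drawn up with earlier results of these data known. Chromatin immunoprecipitation and sequencing (ChIP-seq) with an antibody to GFP had been carried out on whole embryos aged 0 to 24 h, males and females pooled, from a stable fly line whose CG10543 protein carries GFP at its C-terminus. All 3 biological replicates belong to this 1 group, and sonicated fragments measured 200 to 800 bp. The line is the only genotype, and no sample from untagged flies was analysed here, so binding of CG10543 and signal that does not depend on the tag cannot be told apart. Embryos of all these ages and all their tissues were mixed, so a summit cannot be placed in a stage or cell type.

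Insulator proteins bind DNA at the borders between chromatin domains and limit contacts between enhancers and promoters on opposite sides. In flies, several DNA-binding zinc finger proteins recruit shared cofactors with BTB domains, and many of their sites lie next to promoters of broadly expressed genes. Core-promoter factors such as DREF and M1BP bind short elements close to the start sites of many of the same housekeeping genes.

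For each of the 10 genes, summits of the peaks that passed the irreproducible discovery rate (IDR, a threshold based on how ranks repeat between replicates) were collected on the dm6 assembly. A peak of this list need not be listed in every replicate: 221 had no replicate 1 region within 1000 bp. The best rank of each gene with a summit was the same in the list from the pooled replicates. A summit was assigned to a gene when it lay inside it or within 5000 bp of one of its transcription start sites (TSSs). Peaks were ranked by signal value, the authors' own enrichment measure, with rank 1 the strongest of 7545. Each replicate list holds 30000 regions ranked in the same way. By this rule 9 of the 10 genes had a summit, against 52.6% of protein-coding genes. The exception was ZIPIC. A summit lay within 500 bp of a TSS at 6 of the 10 (Cp190, Chro, Dref, M1BP, BEAF-32 and su(Hw)), against 27.9% of protein-coding genes. Restricted to the 3772 strongest peaks, the count was 5, against 17.6%, with su(Hw) no longer included. When each summit counted for its nearest TSS alone, only Chro, BEAF-32 and su(Hw) remained, 3 of 10 against 22%. Replicates also bore on the count. Here a peak was kept when 2 replicates each had a region among their 7545 strongest within 200 bp. With replicates 1 and 3, or 1 and 2, M1BP and su(Hw) dropped out. The 4 genes left stood against 19.3% and 18.2% of protein-coding genes. M1BP had no region in replicate 1, while su(Hw) had one of rank 10226, outside the 7545 strongest. Without replicate 1 all 6 were kept, against 22.5%.

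In all, 16 different summits were assigned to the 9 genes, 12 of them among the 3772 strongest peaks. Of these, 5 lay inside the gene itself and 7 lay within 500 bp of its TSS. Over all 16509 pairs of a protein-coding gene and a summit assigned to it by this rule, these shares were 33.2% and 30.6%. The nearest TSS was the gene's own for 5 summits and another gene's for 11, and it was the gene's own in 39.5% of those pairs. Of the 16, 14 lay within 500 bp of some TSS, against 54.7% of all IDR peaks. The latter include peaks that the rule assigns to no gene, so this closeness is partly set by the assignment. A region among the 7545 strongest of every replicate lay within 200 bp of 11 of the 16, against 55.9% of all IDR peaks. Among all listed regions, 13 of the 16 were matched in every replicate, against 90.9%. The summit nearest to any of the 10 genes but outside the rule lay 5111 bp from a Cp190 TSS and ranked 6586, while the farthest summit admitted by distance, at CTCF, lay 3749 bp away and ranked 7024.

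**Figure D1:**
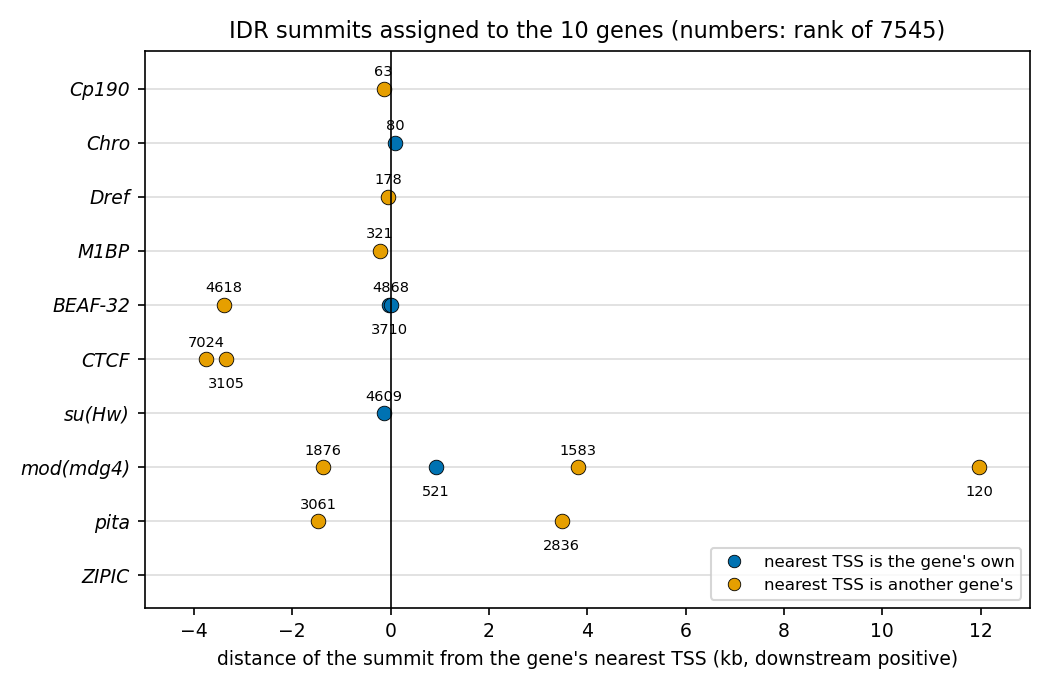
IDR summits assigned to each of the 10 genes, by distance from the gene's nearest TSS in kb (upstream negative). Numbers give the rank among 7545 IDR peaks, and colour shows whether the nearest TSS belongs to the gene or to another gene; the 4 genes with ranks of 63 to 321 at a TSS have 1 summit each, while the 4 summits of mod(mdg4) spread over more than 10 kb.

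The strongest TSS summits lay in promoters that open in both directions. Cp190, Chro, Dref, M1BP and su(Hw) each have a protein-coding neighbour that starts on the opposite strand within 1000 bp upstream, and all 5 had a summit within 500 bp of a TSS. Among protein-coding genes with such a neighbour, 43.5% of 5052 did. Of the 5 genes without one (BEAF-32, CTCF, mod(mdg4), pita and ZIPIC), 1 did, BEAF-32, against 19.1% of 8893 protein-coding genes without one. A single summit counts for both genes of a pair, and all 5 neighbours also had one within 500 bp. The DNA of these 5 promoters is shown because the summits lie in it or beside it. Each sequence is the plus strand of dm6 from RefSeq, 5′ to 3′, reaching at most 100 bp to either side of the summit and limited to bases outside exons. For Chro, whose summit falls in an exon, the bases between both starts are given. Capitals mark matches on either strand to DRE (TATCGATA), Motif 1 (GGTCACACT), the BEAF-32 element CGATA, the CTCF core (AGNNGGCGC), the Su(Hw) core TGCATA or CRE (TGACGTCA).
Cp190 and CG4338, chr3R:15275282-15275482: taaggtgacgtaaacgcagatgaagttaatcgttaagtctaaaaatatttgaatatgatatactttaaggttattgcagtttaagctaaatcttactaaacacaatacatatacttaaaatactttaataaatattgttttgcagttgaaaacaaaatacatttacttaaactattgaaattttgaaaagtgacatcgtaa
Chro and Ssl1, chr3L:22878985-22879088: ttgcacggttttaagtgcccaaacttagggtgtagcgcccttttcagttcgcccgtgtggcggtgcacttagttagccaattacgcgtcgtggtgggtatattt
Dref and RpL13, chr2L:9967230-9967312: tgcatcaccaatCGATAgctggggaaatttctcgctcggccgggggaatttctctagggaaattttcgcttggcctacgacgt
M1BP and CG8202, chr3R:8731821-8732021: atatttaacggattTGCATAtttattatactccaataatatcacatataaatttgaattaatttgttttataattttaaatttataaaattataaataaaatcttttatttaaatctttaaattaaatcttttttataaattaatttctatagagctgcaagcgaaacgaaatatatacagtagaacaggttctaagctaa
su(Hw) and Polr2I, chr3R:14308629-14308829: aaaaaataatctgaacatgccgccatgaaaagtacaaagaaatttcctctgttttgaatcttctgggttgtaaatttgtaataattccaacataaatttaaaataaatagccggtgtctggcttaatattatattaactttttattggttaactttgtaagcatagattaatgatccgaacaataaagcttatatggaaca

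Cp190 (FBgn0000283, chromosome 3R, 15270432 to 15275241, minus strand) encodes a BTB and zinc finger cofactor that several insulator proteins recruit. Its summit, at 15275382 in a peak of 419 bp, ranked 63 of 7545 with a signal of 2004. It lay in intergenic DNA almost midway between both starts, 141 bp from the Cp190 TSS and 140 bp from that of CG4338, which are 281 bp apart. The matched regions ranked 189 in replicate 1, 32 in replicate 2 and 56 in replicate 3, with signals of 484.5, 821.3 and 706. The rank averaged 92.3 ± 84.6 (SD, n = 3), and replicate 1 placed it lowest. None of the motifs sought occurs in the printed window.

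Chro (FBgn0044324, chromosome 3L, 22873702 to 22878984, minus strand) encodes Chromator, a chromodomain protein of open interband chromatin and domain borders. Its summit, at 22878895 in a peak of 394 bp, ranked 80 with a signal of 1836. Of the 5 summits at such promoters it is the 1 that does not lie between the starts: it fell in the Chro 5′ UTR, 89 bp downstream of the TSS and 194 bp from the TSS of Ssl1, which encodes a subunit of the general factor TFIIH. Those starts are 105 bp apart. Its ranks were 127, 73 and 72 in replicates 1, 2 and 3, a mean of 90.7 ± 31.5 (SD, n = 3), the narrowest spread of the 3 genes with a strong TSS summit in every replicate. The 201 bp window at the summit held 1 CGATA, whose centre lay 1 bp from the summit in UTR sequence that is not printed.

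Dref (FBgn0015664, chromosome 2L, 9964147 to 9967229, minus strand) encodes the factor that binds the DNA replication-related element, DRE, at growth and replication genes. The summit, at 9967282 in a peak of 391 bp, ranked 178 with a signal of 1363. It lay 53 bp upstream of the Dref TSS and 31 bp from that of RpL13, a protein of the large ribosomal subunit, in a gap of 84 bp between the starts. Ranks in replicates 1, 2 and 3 were 260, 176 and 146, a mean of 194 ± 59.1 (SD, n = 3). The bases between the starts held 1 CGATA but no complete DRE. Within 500 bp of the Dref TSS no DRE was found at all, while 11.1% of 19253 protein-coding promoters hold one in the same span.

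M1BP (FBgn0037621, chromosome 3R, 8729790 to 8731698, minus strand) encodes the zinc finger protein that binds Motif 1, a core-promoter element. Its summit, at 8731921 in a peak of 258 bp, ranked 321 with a signal of 1065. It lay 223 bp upstream of the M1BP TSS and 170 bp from that of CG8202, between starts 393 bp apart. Replicates 2 and 3 ranked it 237 and 302, with signals of 397.7 and 381.3. Replicate 1 had no region there: its nearest summit lay 7695 bp away and ranked 16270. Motif 1 was not found within 500 bp of the M1BP TSS, and 7.3% of promoters hold it in that span.

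su(Hw) (FBgn0003567, chromosome 3R, 14304455 to 14308589, minus strand) encodes the zinc finger protein that binds the insulator of the gypsy retrotransposon. Its summit, at 14308729 in a peak of 476 bp, was much weaker, ranking 4609 with a signal of 287.7. It lay 140 bp upstream of the su(Hw) TSS and 360 bp from that of Polr2I, which encodes a subunit of RNA polymerase II, between starts 500 bp apart. The regions ranked 10226, 5543 and 2766 in replicates 1, 2 and 3, with signals of 68.13, 77.03 and 138.4. The mean of 6180 ± 3770 (SD, n = 3) had a wide spread, and replicate 1 was the lowest. Within 500 bp of its TSS, su(Hw) held 1 match to the Su(Hw) core, upstream of it, and 41.3% of promoters hold at least 1 in that span.

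**Figure D2:**
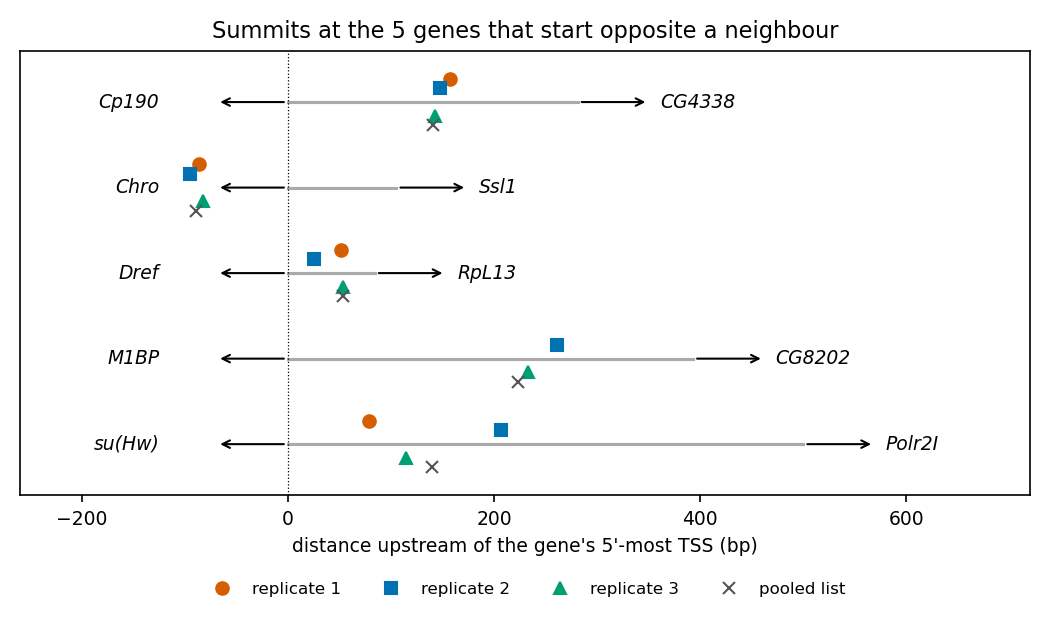
Summits at the 5 genes whose upstream neighbour starts on the opposite strand, in bp upstream of the gene's most 5′ TSS. Grey lines join the 2 starts, arrows show the directions of transcription, and symbols show the best region within 500 bp in each replicate and in the pooled list; all Chro summits lie inside the gene, all others lie between the starts, and M1BP has none in replicate 1.

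The M1BP promoter was the only one of these 5 that a replicate did not list. Replicate 1 listed no region at all over 23240 bp, from 8716376 (rank 3660) to 8739616 (rank 16270), a span in which replicate 2 listed 2 regions and replicate 3 listed 1. No replicate 1 region lay within 1000 bp of 1 of the 16 summits, that at M1BP, and of 2.93% of all IDR peaks (221 of 7545). Among the 321 IDR peaks that rank as high as the M1BP peak or higher, 2 lacked one. Such peaks were fewer for replicate 2 (31) and replicate 3 (34). As the printed sequence shows, the M1BP window is rich in A and T. Its GC content of 17.4% was the lowest of all 7545 IDR summit windows, whose median was 43.3%, with 5th and 95th percentiles of 27.9% and 56.7%. The 221 peaks with no replicate 1 region had a median of 38.3%, the 31 with no replicate 2 region 48.3% and the 34 with no replicate 3 region 40.5%. Strong peaks also had low values: the median was 37.3% for the 100 strongest IDR peaks and 37.8% for the 500 strongest. Of these 500, only 3 had no replicate 1 region.

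The rank in replicate 1 was also set against base composition at the other members. For each summit matched within 200 bp in all replicates, the rank in replicate 1 was divided by the geometric mean of the ranks in replicates 2 and 3 and put on a log2 scale, so a positive value means a weaker place in replicate 1. The value was 3.25 at the strongest mod(mdg4) summit (27.9% GC) and 2.16 at Cp190 (23.9%), and su(Hw), also at 27.9% GC, had 1.38. Chro (38.3%) and Dref (44.3%) had 0.81 and 0.70. At the other end, a mod(mdg4) summit with 50.2% GC had −2.72. Other summits departed from this order. A pita summit with 37.8% GC had 2.51 and a mod(mdg4) summit with 40.3% had 1.06, while a mod(mdg4) summit with 33.3% had −0.55. The BEAF-32 summits at its TSSs, with 32.8% and 35.3% GC, had 0.48 and 0.27, below Dref. Replicate 1 gave the weakest rank at 9 of the 13 matched summits, against 39.9% of all peaks matched in this way. Over the 13 matched summits Spearman's rho was −0.54 and Pearson's r −0.60, and over all 6861 IDR peaks matched in this way rho was −0.42. The points are peaks of the same 3 libraries, neighbouring summits share DNA, and no test applies. The same measure for replicate 2 gave a rho of 0.43 and for replicate 3 of 0.15 over these 6861 peaks. These measures use the same ranks and so depend on each other. Windows at the 7545 strongest regions had a median GC content of 44.8% in replicate 1, 41.3% in replicate 2 and 42.3% in replicate 3. What part base composition or sequencing has in the missing M1BP region was not tested.

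**Figure D3:**
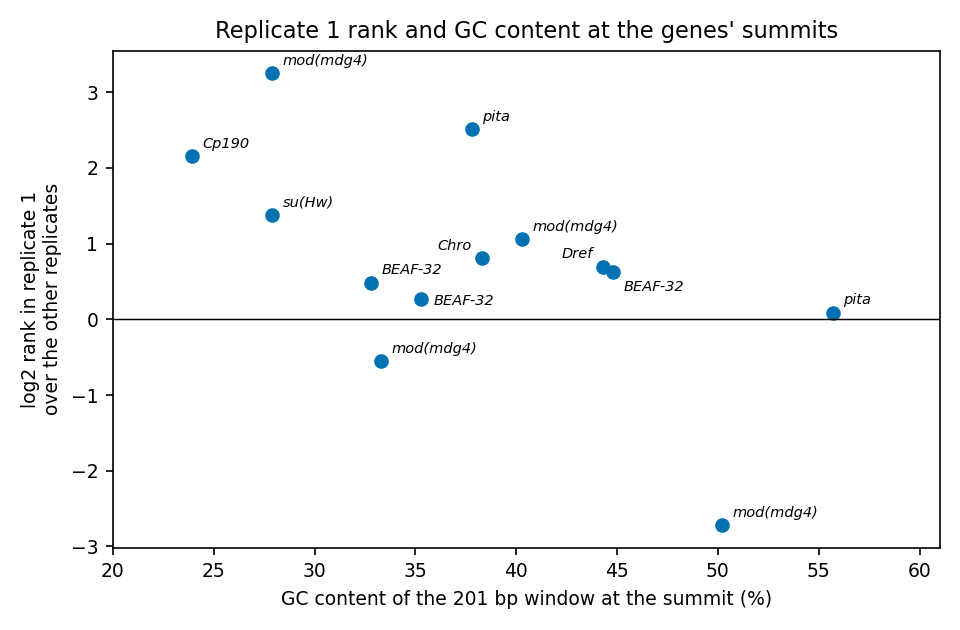
Log2 of the rank in replicate 1 over the geometric mean of the ranks in replicates 2 and 3 (vertical) against the GC content in percent of the 201 bp summit window (horizontal), for the 13 summits of the 10 genes matched in every replicate. Points above 0 rank lower in strength in replicate 1; the summits below 30% GC lie between 1.38 and 3.25, and the lowest point is the mod(mdg4) summit at 50.2% GC.

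Of the 5 genes without a neighbour of this kind, only BEAF-32 had a TSS summit, stronger than that of su(Hw) and weaker than those of the other 4. BEAF-32 (FBgn0015602, chromosome 2R, 14770469 to 14772630, plus strand) encodes the boundary element-associated factor, which binds clusters of CGATA. It had 3 TSSs and 3 summits. A summit at 14770443, 26 bp upstream of its first TSS in an exon of the antisense RNA gene asRNA:CR42254, ranked 3710 with a signal of 328, and ranked 5857, 2770 and 6343 in replicates 1, 2 and 3. A further summit at 14771300, 1 bp upstream of an internal TSS in the 5′ UTR, ranked 4868, and its replicate ranks were 5875, 5351 and 4425. The mean ranks of 4990 ± 1940 and 5220 ± 734 (SD, n = 3 each) differed by less than their spread. The last summit, rank 4618, lay 3397 bp upstream in an intron of Spred, which encodes an inhibitor of MAP kinase signalling. Within 500 bp of its TSSs BEAF-32 held 11 matches to CGATA, the nearest 24 bp downstream of a TSS. At least 1 match occurs within 500 bp of 78.5% of promoters, and the span examined at BEAF-32 takes in all 3 TSSs.

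CTCF (FBgn0035769, chromosome 3L, 7353578 to 7356713, minus strand) encodes the fly form of the conserved zinc finger insulator protein. It had no IDR summit within 500 bp of its TSS. Both assigned summits lay over 3 kb upstream at starts of other genes: 7360056, rank 3105, was 60 bp from the TSS of pst, and 7360462, rank 7024, was 99 bp from that of Sec63, which encodes a protein of the endoplasmic reticulum translocation machinery. These summits lie close together. Replicate 1 had 1 region for both, 11 bp from the pst summit, replicate 2 had 1 at the Sec63 summit, and only replicate 3 had a region within 200 bp of each, at ranks 2871 and 2957. At the CTCF TSS itself the best regions of replicates 1, 2 and 3 ranked 20279, 10785 and 6011 of 30000. Their −log10 q-values of 0.857, 1.20 and 2.65 passed a q-value of 0.01 only in replicate 3. The CTCF core occurred once within 500 bp of the TSS, 191 bp downstream, and 10.5% of promoters hold it in that span.

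**Figure D4:**
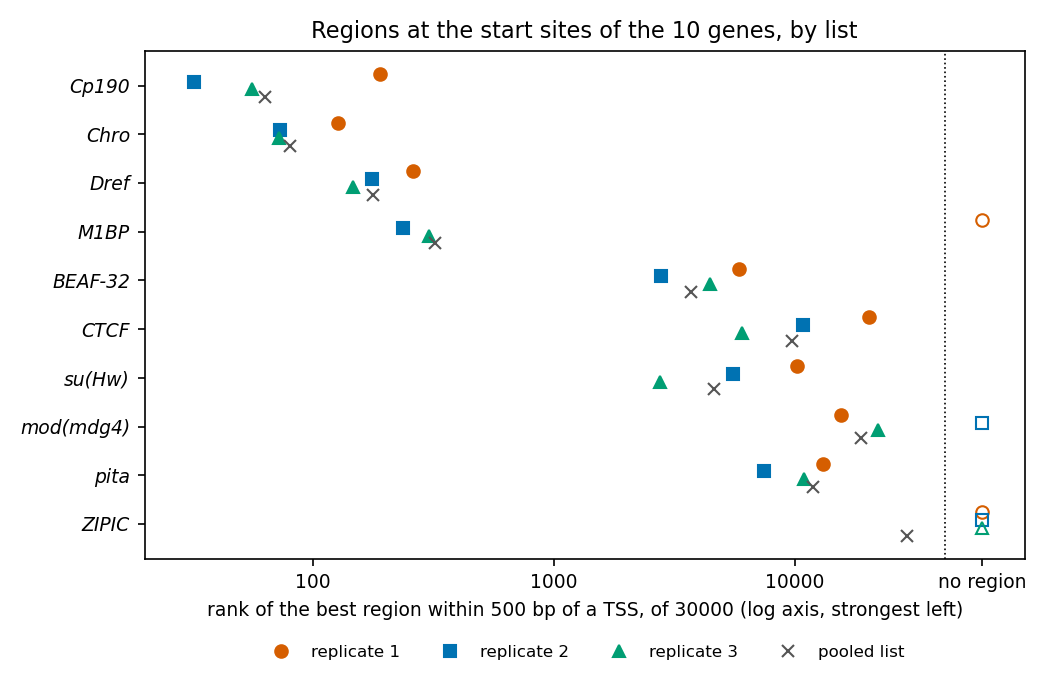
Rank of the strongest region within 500 bp of a TSS of each of the 10 genes in the 3 replicate lists and the pooled list, on a log axis with rank 1 to the left. Open symbols at the right mark lists with no region there; Cp190, Chro, Dref and M1BP stay at or above rank 321 wherever they are listed, and no other gene comes above rank 2766.

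In order of mean rank at a TSS, Chro and Cp190 came first, followed by Dref and M1BP. The M1BP mean covers only the 2 replicates that listed it. The replicate ranks of Cp190 (32 to 189) overlapped those of Chro (72 to 127) and Dref (146 to 260), and those of Dref overlapped those of M1BP (237 and 302). Within single replicates, Cp190 and Chro each stood ahead of Dref in 3 of 3, and Dref ahead of M1BP in both that listed M1BP. Chro and Cp190 changed places between replicates and did not differ beyond their spread. Wherever regions were listed, the ranks of these 4 genes did not overlap those of the rest. Replicate 1 is an exception for M1BP, since it listed no region there but did list regions at weaker genes. BEAF-32 came next (4350 ± 1540, SD, n = 3), then su(Hw), pita (10500 ± 2830) and CTCF (12400 ± 7260), and the ranges of neighbours again overlapped. Within single replicates su(Hw) stood ahead of pita in 3 of 3, while the other neighbours changed places. The mod(mdg4) TSS was listed in 2 replicates only (18900 ± 4660) and ZIPIC in none. At least 1 region of any strength lay within 500 bp of a TSS of 8 of the 10 genes in replicate 1, against 47% of protein-coding genes, of 8 in replicate 2, against 49.4%, and of 9 in replicate 3, against 51.6%.

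mod(mdg4) (FBgn0002781, chromosome 3R, 21350846 to 21377401, minus strand) encodes a family of BTB proteins, insulator cofactors that share their N-terminus and differ at the C-terminus. The variable ends come partly from trans-splicing, in which the common 5′ exons are joined to 3′ exons transcribed from separate promoters inside the locus, annotated as pre-mod(mdg4) genes. The gene spans 26556 bp, against a median of 2166 bp over protein-coding genes, and it has 1 annotated TSS and 22 transcripts. It had 4 assigned summits, 3 of them inside the gene, and 1124 protein-coding genes had 4 or more by the same rule. None lay within 500 bp of its own TSS. There, replicate 1 had a region of rank 15559 and replicate 3 one of rank 22156, with −log10 q-values of 1.41 and 0.312, and replicate 2 had none.

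The strongest mod(mdg4) summit lay deep in the locus. It lay at 21365424, 11977 bp downstream of the TSS, in a mod(mdg4) intron and in the 5′ UTR of pre-mod(mdg4)-E, and ranked 120 of 7545 with a signal of 1604. Regions at this place ranked 683, 70 and 74 in replicates 1, 2 and 3, with signals of 300.7, 655.4 and 651.5. The mean was 276 ± 353 (SD, n = 3), with replicate 1 apart from the others. Starts of pre-mod(mdg4) genes on both strands surround it: the TSS at 21365488 lay 64 bp away, that at 21365290, shared by 3 genes, 134 bp, and that at 21365609, on the plus strand and shared by 7 genes, 185 bp. A further summit at 21373584, rank 1583, lay 9 bp from the TSS of pre-mod(mdg4)-AA, -N and -O, and ranked 2851, 1420 and 1316 in the replicates. Of 7 distinct pre-mod(mdg4) TSSs, which serve 23 genes, 4 had an IDR summit within 500 bp, and these serve 13 genes. The rank 120 summit accounts for the TSSs at 21365290, 21365488 and 21365609, and the rank 1583 summit for the other. These TSSs are thus not separate cases. Over all protein-coding genes, 27.9% had a summit within 500 bp of a TSS. This share counts genes by any of their TSSs, so it is no direct background for the 4 of 7. A share of single TSSs was not computed. At the other 3 TSSs single replicates listed weak regions: replicate 3 had 1 of rank 8253 near the starts at 21359768 and 21360176, and replicate 2 had 1 of rank 18066 near 21368129.

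The remaining mod(mdg4) summits lay near its 5′ end. The summit at 21376474, rank 521, was 927 bp downstream of the TSS in an intron and over 500 bp from any TSS. It ranked best in replicate 1, at 239, against 1748 and 1424 in replicates 2 and 3. This order of ranks is the reverse of that at the rank 120 summit. The signals were 451, 155 and 196.4 in replicates 1, 2 and 3, each on the scale of its own list. The summit at 21378781, rank 1876, lay 1380 bp upstream and 196 bp from the TSS of tin, which encodes the homeobox factor of heart development. Its ranks of 1824, 2502 and 2864 were close, a mean of 2400 ± 528 (SD, n = 3).

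**Figure D5:**
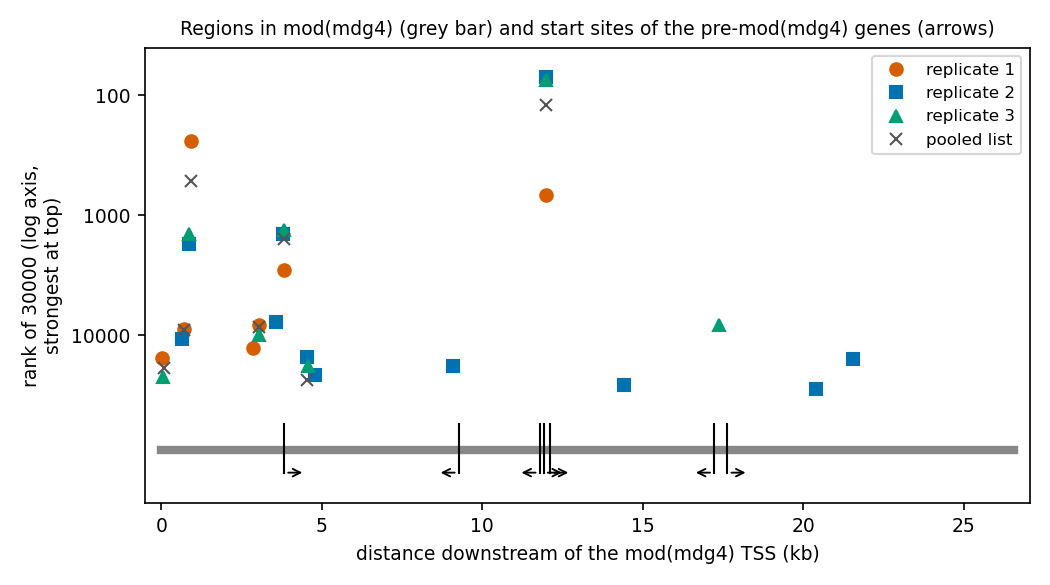
Regions inside mod(mdg4) in the 3 replicate lists and the pooled list, by distance downstream of its TSS in kb (horizontal) and rank of 30000 on a log axis with the strongest at the top (vertical). The grey bar is the gene and arrows mark pre-mod(mdg4) starts with their direction; the best ranked regions lie 11977 bp downstream among 3 such starts and 927 bp downstream away from any.

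The last genes showed no summit at their own starts. pita (FBgn0034878, chromosome 2R, 23548967 to 23554712, minus strand) encodes a zinc finger insulator protein that binds CP190. Both of its assigned summits lay outside the gene in the 5′ UTR of a neighbour: 23548069, rank 2836, was 81 bp from the TSS of wmd, and 23556183, rank 3061, was 34 bp from that of Rrp4, which encodes an RNA exosome subunit. The summit at wmd ranked 10244, 2518 and 1282 in replicates 1, 2 and 3 and that at Rrp4 ranked 3732, 6211 and 1990, so both varied widely. Around the 2 TSSs of pita the best regions ranked 13062, 7455 and 10934. ZIPIC (FBgn0039740, chromosome 3R, 30035240 to 30036870, minus strand), a zinc finger protein named for its interaction with CP190, had the nearest IDR summit 6451 bp from its TSS, at rank 2891. No replicate listed a region within 500 bp of it, and the nearest lay 3683, 4097 and 1222 bp away in replicates 1, 2 and 3. Only the pooled list had one, of rank 29293 and a −log10 q-value of 0.238. A length of 30000 limits how weak a listed region can be, so a lower signal at ZIPIC was not detectable in these lists.

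Short elements bound by some of the 10 factors, and a few others, were sought at the 16 summits. In windows of 201 bp, CGATA occurred at 7 of the 16 summits (Chro, Dref, 1 of BEAF-32, 1 of CTCF, 1 of mod(mdg4) and both of pita), in 30.1% of all 7545 IDR windows and in 37.1% of 19253 promoter windows of that length. The 8-letter DRE, which contains CGATA on both strands, occurred at 1 summit, that of CTCF at Sec63, in 2.33% of IDR windows and in 6.79% of promoters. The Su(Hw) core occurred at M1BP and at the rank 120 summit of mod(mdg4), 2 of 16, in 9.95% of IDR windows and in 8.99% of promoters. None of the 16 held Motif 1 (1.46% and 4.66%), the CTCF core (3.14% and 2.07%), CRE (0.623% and 0.348%) or the Zeste site TGAGTG (11.8% and 9.37%). GAGAG, the GAGA factor element, occurred at 1, the rank 521 summit of mod(mdg4), and in 30.5% and 25.6%. The TATA box TATAAA occurred at 4, among them M1BP with 7 overlapping or nearby matches, and in 25.3% and 29.6%. A match is a string of letters and says nothing of occupancy.

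Among 3430 protein-coding genes with a TSS summit matched in every replicate, the most alike in rank to Cp190, Chro and Dref were their divergent neighbours CG4338, Ssl1 and RpL13, which share the same summit. Apart from these, the smallest Euclidean distances of log10 ranks over the 3 replicates were 0.107 for CG5611 to Cp190 (ranks 172, 37 and 47), 0.106 for RapGAP1 to Chro (146, 67 and 60) and 0.108 for Gdap2 to Dref (222, 203 and 166).

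Genes of other chromatin architecture proteins gave a comparison by the same rules. Of 26 listed, 25 were matched in the annotation. A summit by the wider rule was found at 9 of the 10 genes described above, against 15 of these 25 (60%), and 1 within 500 bp of a TSS at 6 of the 10, against 9 of the 25 (36%). The best TSS ranks were 832 for pzg, whose product Z4 partners Chromator, 976 for Trl, which encodes GAGA factor, 1183 for psq, another BTB protein gene, and 2094 for SMC1, a cohesin subunit gene. All 4 stood below M1BP at 321, by TSS ranks alone. Over 500 bp from its TSSs, Trl had an assigned summit of rank 6, stronger than any summit of the 10 genes. pzg ranked 9067, 656 and 260 in replicates 1, 2 and 3, with replicate 1 lowest. Of 32 general transcription factor genes, 31 were matched, with 23 (74.2%) by the wider rule and 17 (54.8%) within 500 bp. Their best at a TSS were Nelf-E, a gene of the pausing factor NELF, at 219 (349, 318 and 160 in the replicates), and Taf5, a TFIID subunit gene, at 1198. TfIIA-S followed at 1209 and TfIIB at 1540. Over 500 bp from a TSS, the best assigned summits ranked 124 for Taf13 and 214 for Spt5. The 6 TSS summits of the genes above ranked 63, 80, 178, 321, 3710 and 4609, and the median best TSS rank was 2793 over all protein-coding genes with one. These 10 genes were listed with the ranks known, so no test is given.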

How the data were processed

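ChIP-seq with anti-GFP was run on 3 biological replicates of CG10543-GFP embryos. The authors deposited a list of 30000 regions for each replicate and for their pool, and an IDR list, on dm6 and dm3; dm3 lists were not used here. Each region carries a signal value, the authors' deposited enrichment, and a deposited −log10 q-value. Replicates and pool were called against 1 control alignment, per the file headers. No aligner or peak caller is named: they were not given in the sources used here. Read counts are absent from the deposited lists, so depth is unknown and no interval that needs it is given. Regions with a q-value under 0.01 numbered 12593, 7016 and 7612 in replicates 1, 2 and 3.

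Python 3.11.15, pandas 2.3.3 and numpy 2.4.6 were used. Genes came from Ensembl release 115 (BDGP6) and sequence from RefSeq Release 6, both in dm6 coordinates, and all summits lay within the lengths of the arms. Regions were ranked by signal within each list only, and replicate ranks are given as mean ± SD. A replicate region matched a summit within 200 bp. Motifs were sought on both strands 100 bp to each side of a summit and, as background, from 150 bp before to 50 bp after each protein-coding TSS. Printed sequences leave out exons. Named were the 10 genes, the genes nearest their summits and the 2 genes most alike in replicate ranks for the 3 best. The 4 best of each other list by TSS rank were also named, with Taf13 and Spt5 for their stronger summits elsewhere. There is 1 group, so no comparison was tested, and the functions for assigning and matching summits and finding motifs were tested on simulated data. The genes and lists were chosen with earlier results of these data known. The labels call the replicates biological without describing separate collections, so their spread may be partly technical. Alternatives in distance, peak set, replicates, matching and window were tried.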

Additional observations from a re-analysis of the deposited data

How the results depend on the processing

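The 4 counts were the 9 genes with a summit by the wider rule, the 6 with one within 500 bp of a TSS, the 16 summits assigned and the 11 matched in every replicate. Counting each summit for its nearest TSS only gave 4 and 3 genes for the first pair, and a reach of 1000 bp gave 10 summits assigned. The matching share of protein-coding genes was 22% for the 3. None was computed for the 4, so that count has no background. Leaving out each replicate in turn gave 6 to 9 genes, 4 to 6 genes, 11 to 15 summits assigned and 11 to 15 matched. The last pair is equal by construction and so shows no stability of the matched count. Only peaks matched among the 7545 strongest regions of both other replicates were kept. These sets hold fewer peaks, and 22.5%, 19.3% and 18.2% of protein-coding genes had a summit within 500 bp of a TSS without replicates 1, 2 and 3. No such shares were computed for the wider rule, so the 6 to 9 genes have no background either. CTCF lost both summits without replicate 3. The alternatives in distance, peak set and matching not named here stayed within 1.5 times. Motif counts moved with the window: CGATA occurred at 3 summits with 50 bp on each side and at 9 with 150 bp. No paired analysis was possible because there is 1 group. The unknown depth limits what the absence of a region shows.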
